A study of Mus musculus with 6 samples.

Results

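The primary cilium genes described here are the building and gating parts of the single, non-motile cilium that a bile duct cell carries on its lumen side: intraflagellar transport (IFT) proteins, their motors, the BBSome, the transition zone, the carriers of ciliary membrane proteins, and the centriole and centrosome proteins of the CEP series. They were taken by gene symbol (Ift, Bbs, Nphp, Tctn, Cep, B9d and Dync2 families, Kif3a to Kif3c, Kif7, Kif17, Arl3, Arl13b and a short set of transition zone and trafficking genes). The symbol pattern itself reads no measured value, but it was chosen with earlier results of these data known. The pattern found 94 of the 25302 rows of the table, and 93 of them reached the mean of 10 normalized reads needed for a test, beside 17153 genes tested in all. RNA was sequenced from biliary epithelial cells of mouse liver, the cells that line bile ducts, in 3 Control and 3 Sox9cKO samples. Control samples had the genotype Sox9fl/fl, that is, both Sox9 alleles carried the sites that Cre recombinase cuts, but the labels name no Cre. Sox9cKO samples had the genotype Sox9fl/fl:AlbCre+/-, so both groups carried the floxed alleles and only this one carried Cre, under the control of the albumin promoter, which is active in hepatocytes and in the liver progenitors that also give rise to bile duct cells. Age, sex, treatment and the way the cells were isolated are not given in the sources used here, nor is it stated that replicates were separate animals, so p-values measure the spread between these samples only.

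As background, a primary cilium grows from a mother centriole that docks at the cell surface through its distal appendages and becomes a basal body. IFT trains carry building material along the axoneme: kinesin-II moves the IFT-B part outward, and cytoplasmic dynein-2 brings the trains back with IFT-A. The transition zone at the base acts as a gate, and the BBSome, Tulp3 and the small GTPases Arl13b and Arl3 move membrane and lipid-linked proteins through it. In cholangiocytes the cilium senses bile flow, osmolality and bile constituents, and loss of its proteins is a known cause of ductal plate malformation and cystic bile ducts.

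The libraries held 11883496 to 16191990 reads assigned to genes. Sox9, the transcription factor targeted in the Sox9cKO genotype, had 6211, 6043 and 6293 normalized reads in the Control samples and 3363, 3165 and 3339.7 in the Sox9cKO samples, 53.2% of the Control mean, with no overlap (limma, log2 fold change -0.91, SE 0.10, adjusted p = 0.00501). Of 14 biliary markers all were detected, among them Krt19 with 12338, 12328 and 11479.6 normalized reads in Control and 26648, 12666 and 17293 in Sox9cKO, and Epcam with 7796, 6559 and 7551 against 8249, 5501 and 6155 (where sets of 3 values are joined by "against", the first is Control, in replicate order, and the second Sox9cKO). Of the 14, 10 had a log2 fold change below 0 (median -0.11), 4 were called with the replicate block, and Krt7 alone passed the test without it, rising (203% of Control, limma adjusted p = 0.0408). Hepatocyte transcripts were present too, with Alb at 27683, 17384 and 18944 against 32147, 21399 and 35363 normalized reads. The summed level of 14 hepatocyte markers was 38809, 25094 and 29555 normalized reads in Control and 62554, 48059 and 79361 in Sox9cKO. Of the 14, 11 had a log2 fold change above 0 (median 0.42), and the lowest value was -1.31. The 4 that were called rose (Apob, log2 fold change 2.97, Serpina1a, 4.21, Tat, 2.26, and Fgb, 3.62). The summed level of the 9 leukocyte markers in the table was 1135, 1191 and 1052 in Control and 1516, 1671 and 1822 in Sox9cKO. Of the 6 leukocyte markers tested, Csf1r rose (log2 fold change 0.92) and the other 5 had values below 0 (median of the 6, -0.63), and none of the 9 was at 0 in every sample, with Cd52 as low as 0.93 to 5.76 normalized reads. The 10 endothelial markers summed to 12235, 38784 and 1739 normalized reads in Control (replicates in order) and 30543, 39616 and 6346 in Sox9cKO. Both replicates numbered 3 were low, Sox9cKO was the higher within each replicate number, and all 10 markers had a log2 fold change above 0 (median 1.07), though none was called without the block and 1 with it. In bulk samples like these, fewer cells of a type and less RNA per cell cannot be told apart, and the part of other cell types in any result below was not tested.

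Of the 93 cilium genes tested, 1 was called between Control and Sox9cKO, Arl13b, and it was lower in Sox9cKO. A gene is called here where the adjusted p of limma, with Benjamini-Hochberg adjustment over all 17153 genes, is under 0.05. The same rule called 510 genes, 2.97% of those tested, with 161 lower in Sox9cKO (0.939%) and 349 higher (2.03%). The share of cilium genes called was thus no larger than that of all genes. An unadjusted p under 0.05 was found for 14 of the 93 (15.1%), against 17.8% of all genes. All 3 Sox9cKO samples lay above all 3 Control samples for 11 cilium genes and below for 10, which is the case for 13.4% and 10.8% of all genes tested. Other methods called similarly few: edgeR's quasi-likelihood test on the recovered reads called Arl13b alone (2.86% of all genes), DESeq2 called Arl13b and Cep295 (7.08% of all genes), and limma blocked by replicate number called Arl13b, Cep170, Cep295 and Ift22 (8.05% of all genes). In edgeR with the same block Arl13b alone was called (6.76% of all genes), with adjusted p = 0.0518 for Cep170, 0.0540 for Cep295 and 0.0548 for Ift22.

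The cilium genes as a group sat slightly above 0. Their median log2 fold change was 0.13, against 0.036 over all genes tested and 0.080 over the 8668 genes of similar mean level, and 63 of the 93 (67.7%) had a value above 0 against 54.2% of all genes and 59.8% of the genes of similar level. The median was 0.069 without Sox9cKO replicate 3 and 0.021 after quantile normalization, where the median of all genes was -0.031. Log2 fold changes ran from -0.94 for Arl13b to 0.71 for Nphp4, and 15 of the 93 (16.1%) were more than 0.5 away from 0, against 27.7% of all genes and 22.7% of those of similar level. For 71 of the 93 (76.3%) the 95% interval lay wholly between -1 and 1, that is, within a factor of 2 either way; this was so for 57.1% of all genes and 68.8% of those of similar mean level. For the other cilium genes a change of that size lay within the interval.

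**Figure D1:**
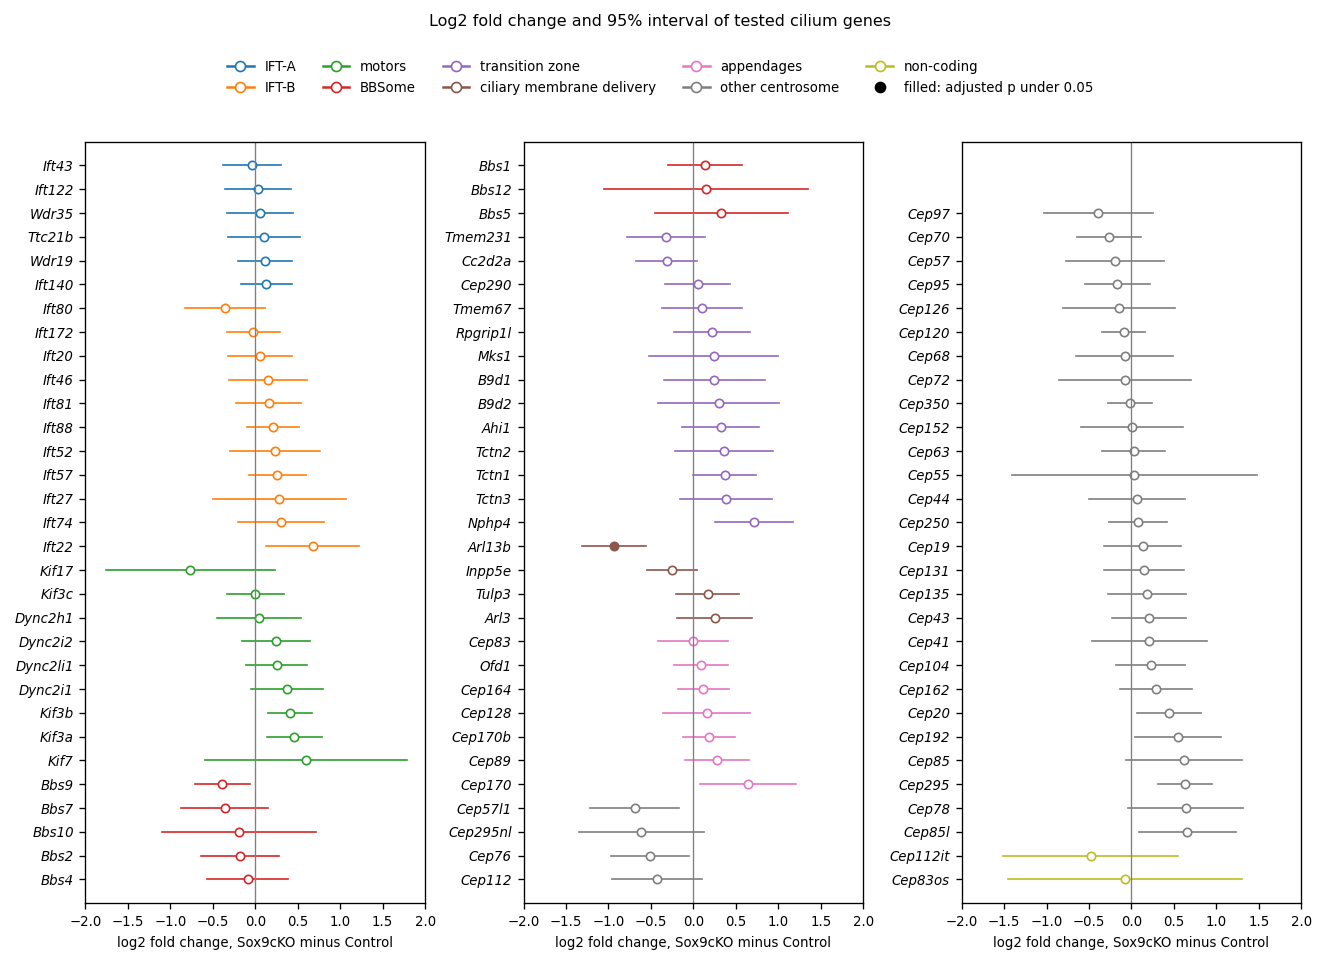
Log2 fold change of 91 tested cilium genes (horizontal axis, Sox9cKO minus Control, on the log2(normalized reads + 1) scale) with its 95% interval from limma, coloured by role; filled points have an adjusted p under 0.05. Arl13b, at -0.94, is the only filled point, and Nphp4, at 0.71, is the highest.

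Arl13b (ENSMUSG00000022911) encodes a small GTPase of the ciliary membrane that activates Arl3 and keeps the phosphatase Inpp5e in the cilium, and variants in the human gene cause Joubert syndrome. The Control samples held 1096, 814 and 899.8 normalized reads and the Sox9cKO samples 427, 556 and 482. Every Sox9cKO value was below every Control value, and on average 52.1% of the Control level was left. Arl13b fell by 0.94 on the log2 scale (SE 0.16, 95% interval -1.31 to -0.56; limma adjusted p = 0.0294), and by 0.98 in edgeR (adjusted p = 0.0258). In the fit blocked by replicate its adjusted p was 0.0217. Its direction held in every alternative tried, with log2 fold changes from -1.05 to -0.82. The call was lost without Control replicate 1 (limma adjusted p = 0.119), Control replicate 3 (0.0964), Sox9cKO replicate 1 (0.0778) or Sox9cKO replicate 3 (0.0874), and held without Control replicate 2 (0.0372) or Sox9cKO replicate 2 (0.0479). Per kilobase of exon, Arl13b stood at 184 normalized reads in Control, the third highest of the cilium genes there, and at 96.0 in Sox9cKO. Stx19, a gene on the opposite strand inside Arl13b that shares no exon base with it, had 4.20, 2.78 and 1.15 normalized reads in Control and 0.995, 0.945 and 0 in Sox9cKO. In the same contrast the hepatocyte marker sum was higher in Sox9cKO, as was the endothelial marker sum within each replicate number. The leukocyte marker sum was higher too, but of the 6 leukocyte markers tested only 1, Csf1r, had a value above 0 (median -0.63). Of the 14 biliary markers 4 had a value above 0 (median -0.11). The part of these cell types in the Arl13b values was not tested.

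The 250 bases before the RefSeq transcription start of Arl13b (GRCm38.p6, chr16:62847041-62847290, minus strand) are shown because Arl13b is the one cilium gene that changed, with capitals at GTTGCC, the core of the X-box that RFX transcription factors bind, whose first base lies 181 bases before the start. The fuller, spaced form of that motif described further on, with its fixed spacer NNN, was not found in this window. GTTGCC is here followed by ta and then gttac, which reads GNNAC, and other spacings were not searched.
Arl13b: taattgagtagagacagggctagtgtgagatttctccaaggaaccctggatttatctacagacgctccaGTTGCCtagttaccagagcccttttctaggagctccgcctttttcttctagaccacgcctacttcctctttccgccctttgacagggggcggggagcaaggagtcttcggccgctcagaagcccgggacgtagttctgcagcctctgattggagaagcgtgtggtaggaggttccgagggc

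The other 3 carriers of ciliary membrane proteins did not pass the test. Inpp5e, the inositol phosphatase that Arl13b retains in the cilium, had 355, 359 and 359 normalized reads in Control and 286, 294 and 322 in Sox9cKO. All its Sox9cKO values were below its Control values, but the difference was small (log2 fold change -0.25, SE 0.12, limma adjusted p = 0.348), and 874 of its exon bases are shared with Pmpca on the opposite strand. Arl3, the GTPase that releases lipid-linked cargo inside the cilium, had 258, 169.8 and 194 against 259.7, 244 and 225 normalized reads, with overlapping groups (log2 fold change 0.25, limma adjusted p = 0.561). Tulp3, the adaptor that brings receptors and Arl13b to the cilium with IFT-A, had 224, 193 and 179.7 against 235, 233 and 200.4 (log2 fold change 0.17, 95% interval -0.21 to 0.54). Summed over the 4 genes, the level was 1932, 1536 and 1633 normalized reads in Control and 1207, 1327 and 1229 in Sox9cKO, 73.8% of the Control mean. Arl13b made up 937 of the Control mean of 1700.3 reads, so the sum follows Arl13b.

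None of the 17 IFT members was called. The 6 IFT-A genes, whose complex turns trains round and admits membrane proteins, had the narrowest range of any role, from -0.040 for Ift43 to 0.13 for Ift140. Ift140 had 401, 379 and 372 normalized reads in Control and 439, 378 and 446 in Sox9cKO. Wdr19 (IFT144) had 222, 215 and 206 against 229, 222 and 246, the highest Control and lowest Sox9cKO value being the same once rounded. Ttc21b (IFT139) had 219, 169 and 168 against 205, 172 and 218, with overlapping groups. None of the 3 differed by more than 0.13 on the log2 scale, and the signs of Wdr19 (-0.012) and Ttc21b (-0.021) turned under quantile normalization. The summed IFT-A level in Sox9cKO was 104% of Control.

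Among the 11 IFT-B genes, log2 fold changes ran from -0.36 for Ift80 to 0.68 for Ift22, with 9 above 0 and a median of 0.21. Ift22, a small GTPase-like subunit of the IFT-B core, had 133, 147 and 204 normalized reads in Control and 199.97, 269 and 305 in Sox9cKO. Within each replicate number the Sox9cKO value was the higher, while the highest Control value exceeded the lowest Sox9cKO value, and the adjusted p of limma was 0.191 without and 0.0416 with the replicate block. Ift57, a peripheral IFT-B subunit, had 339, 345 and 409 against 405, 483 and 421 normalized reads (log2 fold change 0.26, limma adjusted p = 0.400). Ift80 had 343, 361 and 477 against 249.7, 303 and 368 (log2 fold change -0.36, adjusted p = 0.408), the groups overlapping. Ift88, whose hypomorphic allele gives the Oak Ridge polycystic kidney mouse with bile duct lesions, had 332, 298 and 286 normalized reads in Control and 356, 335 and 366 in Sox9cKO, with a 95% interval for the log2 fold change of -0.10 to 0.51. Ift172, the largest subunit, had means of 624 ± 55.4 and 615 ± 58.0 normalized reads (SD, n = 3 each). The remaining 6 (Ift20, Ift27, Ift46, Ift52, Ift74 and Ift81) had log2 fold changes of 0.061 to 0.30, all with overlapping groups.

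Of the 9 motor genes none passed the adjusted threshold, and both motor subunits of heterotrimeric kinesin-II stood above Control in every Sox9cKO sample. Kif3a (ENSMUSG00000018395) had 506, 454 and 455 normalized reads in Control and 623, 744 and 588 in Sox9cKO (log2 fold change 0.46, SE 0.14; limma adjusted p = 0.139, 0.0785 with the block). Kif3b (ENSMUSG00000027475), its partner, had 525, 515 and 563 against 710.4, 726 and 692 (log2 fold change 0.41, SE 0.11; adjusted p = 0.111, 0.0719 with the block). The Sox9cKO means were 138% and 133% of Control. Kifap3, the non-motor subunit of the same motor and not among the members, had 413, 325 and 353 against 381, 325 and 368 normalized reads (log2 fold change -0.017, 95% interval -0.36 to 0.33). Kif3c, the alternative partner of Kif3a, had 252, 219.96 and 207 against 224, 225 and 228, a log2 fold change near 0 with an interval of -0.34 to 0.33. The dynein-2 subunits lay between 0.046 for the heavy chain Dync2h1 and 0.37 for the intermediate chain Dync2i1 (414, 299.8 and 438 normalized reads in Control, 438, 523 and 517 in Sox9cKO; limma adjusted p = 0.339). Kif17, an accessory kinesin (69.8, 111 and 87.6 against 26.9, 59.5 and 83.8), and Kif7, the kinesin at the ciliary tip that acts in Hedgehog signalling (79.0, 95.6 and 24.2 against 100.5, 98.3 and 65.7), had few reads and intervals wide enough to include a change by a factor of 2 in the direction of their estimates.

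The BBSome group was the only coding role apart from membrane delivery with a median below 0 (-0.13, 5 of 8 genes below 0), and none of its genes was called. Bbs9, a scaffold subunit, had 278, 293 and 269.6 normalized reads in Control and 196, 221 and 225 in Sox9cKO, every Sox9cKO value below every Control value (76.4% of the Control mean; log2 fold change -0.39, limma adjusted p = 0.201). Bbs7, another subunit, had 64.7, 60.3 and 53.0 against 49.7, 40.6 and 47.5, also without overlap (log2 fold change -0.36, adjusted p = 0.450). Bbs5, the subunit that binds phosphoinositides, had 49.6, 44.5 and 53.0 against 59.7, 40.6 and 96.2, its estimate of 0.33 resting on Sox9cKO replicate 3 (0.0099 without it). Bbs1, Bbs2 and Bbs4 had log2 fold changes of 0.14, -0.18 and -0.088. The chaperonin-like genes Bbs10 and Bbs12, which help the BBSome assemble, had means of 29.6 and 16.0 normalized reads in Control and 27.2 and 17.7 in Sox9cKO. At that level their 95% intervals, -1.10 to 0.71 and -1.06 to 1.35, do not limit a change to less than a factor of 2. The group's sum in Sox9cKO was 91.8% of Control.

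In the transition zone group 13 of 15 genes had a value above 0 (median 0.25), and none was called. Nphp4 (ENSMUSG00000039577), a nephrocystin whose human gene is mutated in nephronophthisis, was highest. It had 72.3, 58.5 and 71.4 against 99.5, 121 and 112 normalized reads. Its groups did not overlap, and the Sox9cKO mean was 164% of Control (log2 fold change 0.71, SE 0.20; limma adjusted p = 0.116, 0.0853 with the replicate block). Tctn1, a secreted or membrane protein of the same gate, had 254, 233 and 266 against 274, 363 and 343 (log2 fold change 0.37, limma adjusted p = 0.283); 1574 of its exon bases are shared with Hvcn1 on the opposite strand, which had means of 29.6 and 45.2 normalized reads in Control and Sox9cKO. Its paralogs Tctn2 and Tctn3 had log2 fold changes of 0.37 and 0.38 with overlapping groups.

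The 2 transition zone genes with values below 0 were Cc2d2a, which had 544, 408 and 407 normalized reads in Control and 357, 353 and 370.2 in Sox9cKO, and Tmem231, with 127, 119.7 and 127 against 119, 83.2 and 98.5. Both belong to the membrane-associated tectonic complex, but the tectonic genes Tctn1, Tctn2 and Tctn3 had values above 0 (0.37, 0.37 and 0.38). In Cc2d2a and Tmem231 every Sox9cKO value was the lower (log2 fold change -0.32 each, limma adjusted p = 0.346 and 0.445). Cep290, the linker between axoneme and membrane and the most abundant transition zone transcript by reads, had 755, 651 and 809.9 against 648, 751 and 908, a 95% interval of -0.33 to 0.43. Rpgrip1l, the organiser of the gate, had 324, 272 and 294 against 286, 326 and 440.4. Ahi1, Tmem67, Mks1, B9d1 and B9d2 had log2 fold changes of 0.10 (Tmem67) to 0.32 (Ahi1), all with overlapping groups, and the 3 B9-domain genes Mks1, B9d1 and B9d2 had Control means of only 41.1 to 57.0 normalized reads.

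**Figure D2:**
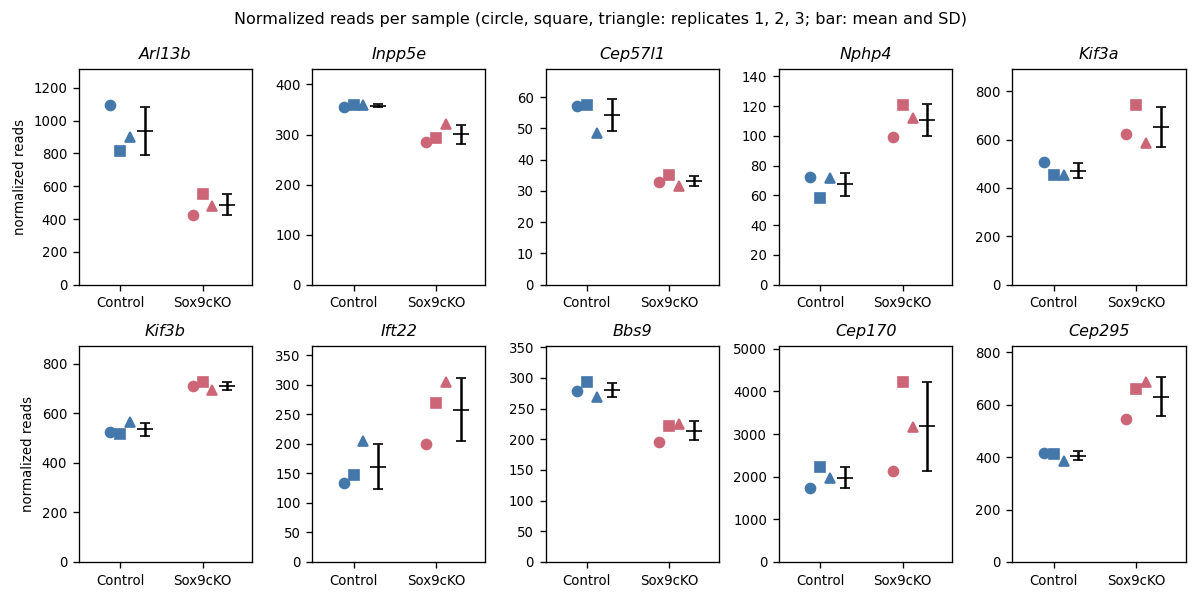
Normalized reads (vertical axes, from 0) of 10 cilium genes in each of the 3 Control (blue) and 3 Sox9cKO (red) samples; circles, squares and triangles are replicates 1, 2 and 3, and the black bar is the mean with its SD. Arl13b lies at 427 to 556 in Sox9cKO against 814 to 1096 in Control, while Ift22 and Cep170 overlap between groups and Sox9cKO replicate 2 is the highest for Cep170, at 4221.

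The 7 genes of the distal and subdistal appendages, which anchor the basal body and microtubules, had a median log2 fold change of 0.16. Cep170, a subdistal appendage and centrosome protein, had 1725, 2219 and 1968 normalized reads in Control and 2142, 4221 and 3171 in Sox9cKO, a log2 fold change of 0.64. Its Sox9cKO replicate 1 lay below Control replicate 2, and the adjusted p of limma was 0.227 without and 0.0360 with the replicate block. Its relative Cep170b had 4559, 3956 and 4992 against 5418, 4631 and 5264 (log2 fold change 0.18). Cep89, a distal appendage protein, had 282, 258 and 304 against 303, 323 and 405 (log2 fold change 0.28, adjusted p = 0.420). Cep83 and Cep164, which are needed for docking to the membrane and for recruiting the kinase Ttbk2, had log2 fold changes of -0.0097 and 0.12, and Ofd1 and Cep128 of 0.085 and 0.16. The group's summed level was 8261, 8099.7 and 8844 in Control and 9409.8, 11000.3 and 10649.5 in Sox9cKO, 123% of Control without overlap; Cep170 and Cep170b held most of it.

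Among the other 31 centrosome and centriole genes 18 had values above 0 and the median was 0.035. Cep295 (ENSMUSG00000046111), which is needed to turn a daughter centriole into a centrosome, was nearest to the threshold, with 418, 414 and 387 normalized reads in Control and 547, 661 and 687 in Sox9cKO. Its groups did not overlap (Sox9cKO mean 155% of Control; log2 fold change 0.63, SE 0.13, limma adjusted p = 0.0588), and it was called with the replicate block (adjusted p = 0.0354) and in DESeq2 (adjusted p = 0.0114). Its exons share 77 bases with Taf1d, 545 with Gm48142 and 1765 with Gm16568, all on the opposite strand; these had Control means of 1665, 2.54 and 9.56 normalized reads and Sox9cKO means of 1577, 1.65 and 8.49, none of them higher in Sox9cKO. Cep57l1, a centrosomal relative of Cep57, had 57.2, 57.5 and 48.4 against 32.8, 35.0 and 31.7 (log2 fold change -0.69, adjusted p = 0.168). Cep20, a centriolar satellite protein needed for cilium formation, had 118, 108 and 123 against 155, 149 and 169.8 (log2 fold change 0.44, adjusted p = 0.209). Both pairs of groups were apart, in opposite directions. Cep85 had 461, 648 and 954 against 964, 809 and 1332, with Control replicate 3 above Sox9cKO replicate 2. Cep350, a large centrosome protein, had 3762, 3711 and 3892 against 3466, 3604 and 4188, overlapping in both directions. Cep85l, Cep192 and Cep76 had an unadjusted p under 0.05 as well, with log2 fold changes of 0.66, 0.55 and -0.51 (limma adjusted p = 0.217, 0.248 and 0.229). The rest ran from -0.61 for Cep295nl to 0.64 for Cep78. Cep120, a centriole elongation factor, had the smallest SD within groups, with 676, 703 and 682 against 639, 662 and 631 normalized reads; its groups did not overlap (log2 fold change -0.094).

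The pattern also took in 3 non-coding transcripts of these loci. Ift88os, antisense to Ift88 with 67 shared exon bases, was too low to test (5.04, 13.0 and 18.4 normalized reads in Control, 3.98, 7.56 and 9.06 in Sox9cKO). Cep112it had 21.0, 14.8 and 26.5 against 10.9, 10.4 and 24.9, and Cep83os 54.6, 31.6 and 10.4 against 25.9, 33.1 and 18.1. The sign of Cep83os was not settled: its log2 fold change was -0.078, and leaving out single samples moved it from -0.71 to 0.43.

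Levels differed between the cilium genes far more than between the groups. Per kilobase of merged exon, over all 6 samples, Cep170b had the highest mean level at 600.3 normalized reads, followed by Cep350 at 228, Cep85 at 163, Kif3a at 157 and Cep170 at 143. Cep85 and Kif3a, and Kif3a and Cep170, are neighbours in that order whose levels do not differ beyond their spread over samples. Cep72, a pericentriolar protein, was lowest at 2.70. The median over the 92 genes with an exon length was 41.0, against 48.0 over all genes tested. For comparison, the biliary markers Krt19, Epcam and Sox9 stood at 8334, 3175 and 1145 on the same scale.

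**Figure D3:**
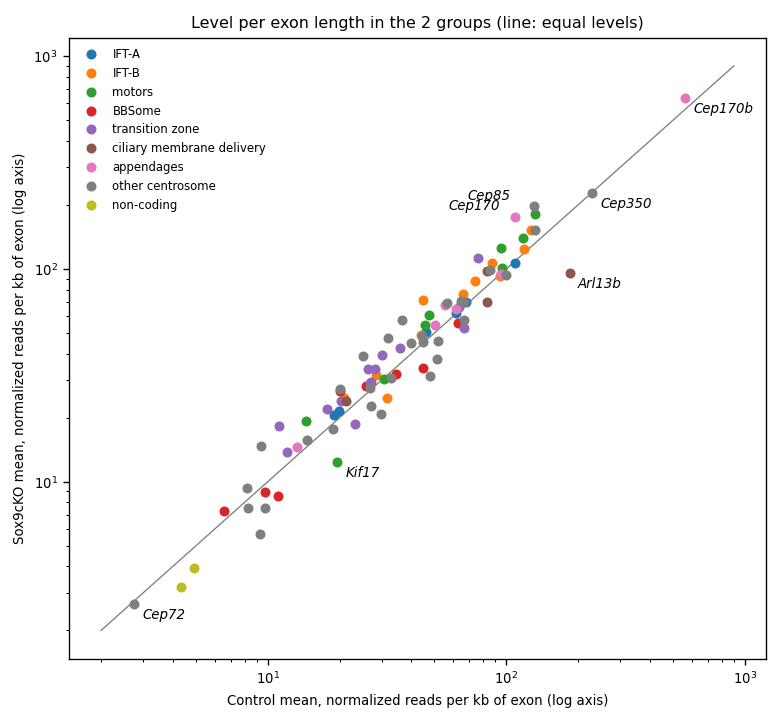
Mean level of 92 cilium genes in Control (horizontal) and Sox9cKO (vertical), as normalized reads per kilobase of merged exon on log axes; each point is a gene, coloured by role, and the line marks equal levels. Points follow the line from Cep72, at 2.70 over all samples, to Cep170b, at 600.3, and Arl13b lies below it with 184 in Control and 96.0 in Sox9cKO.

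The samples of one group did not stand equally. The median deviation of the cilium genes from their own mean over the 6 samples was 0.012, -0.14 and -0.032 (log2) in Control, replicates in order, and -0.036, 0.012 and 0.16 in Sox9cKO, so Sox9cKO replicate 1 lay below Control replicate 1. Sox9cKO replicate 3 was the highest sample and Control replicate 2 the lowest, while the medians over all genes tested stayed between -0.022 and 0.039. Relative to the Control mean, the median cilium gene stood 0.065, 0.097 and 0.22 higher in Sox9cKO replicates 1 to 3. The high place of Sox9cKO replicate 3 recurred across roles: it was highest for IFT-A (0.15), IFT-B (0.16), motors (0.18), the BBSome (0.16), the transition zone (0.24), the appendages (0.14) and the other centrosome genes (0.12), though not for membrane delivery (-0.046). Control replicate 2 was lowest for IFT-B, motors, the transition zone and the appendages. It was not lowest for IFT-A, the BBSome (0.075), membrane delivery or the other centrosome genes. Summed normalized reads of all 94 rows were 34919, 33002 and 36009 in Control and 35026, 38953 and 41242 in Sox9cKO, 110.9% of Control with overlapping groups. The median SD within groups was 0.23 on the log2 scale for the cilium genes and 0.29 for all genes. It was largest for Cep55, Cep83os and Kif7 (0.91, 0.88 and 0.78) and smallest for Cep120 (0.033).

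**Figure D4:**
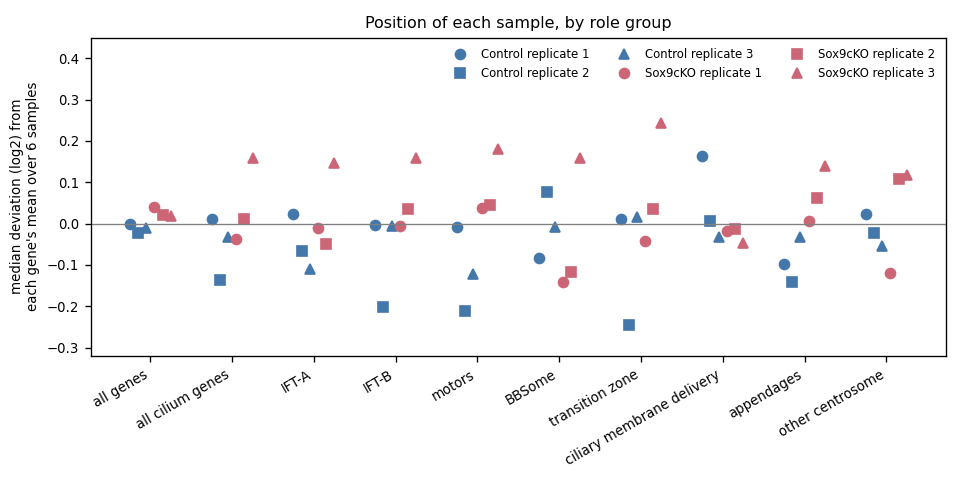
Median deviation (vertical axis, log2) of each role group's genes from each gene's mean over the 6 samples; blue symbols are Control, red Sox9cKO, and circles, squares and triangles are replicates 1, 2 and 3. Sox9cKO replicate 3 is the highest symbol for all cilium genes at 0.16, and Control replicate 2 the lowest at -0.14.

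Cilium genes outside the symbol pattern were read from 6 lists of 100 genes, of which 99 were in the table and 95 were tested. In these lists 2 genes were called higher in Sox9cKO and none lower (of all genes tested, 2.03% were called higher and 0.939% lower). The median log2 fold change was 0.0082. Adcy5 (ENSMUSG00000022840), an adenylyl cyclase found in primary cilia among other places, had 29.4, 42.7 and 33.4 normalized reads in Control and 214, 197 and 143 in Sox9cKO. Its Sox9cKO mean was 524% of Control (log2 fold change 2.35, SE 0.25, limma adjusted p = 0.00501), and it was still called whichever single sample was left out. Tmem237 (ENSMUSG00000038079), a tetraspan transition zone protein mutated in Joubert syndrome, had 131, 118 and 136 against 289.5, 267 and 307, 224% of Control (log2 fold change 1.16, SE 0.15, adjusted p = 0.00941; 0.0501 without Control replicate 1). The hepatocyte marker sum, and the endothelial marker sum within each replicate number, were higher in Sox9cKO, as given above. So was the leukocyte marker sum, though only 1 of the 6 leukocyte markers tested, Csf1r, had a value above 0. The part of these cell types in the Adcy5 and Tmem237 values was not tested.

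By list, the other IFT and BBS genes had 0 of 17 tested genes called and the other transition zone and inversin compartment genes 1 of 16 (Tmem237). The other basal body, appendage and initiation genes had 0 of 29, ciliary membrane and signalling 1 of 16 (Adcy5), ciliary transcription factors 0 of 9 and cilium disassembly 0 of 8. With the replicate block further genes were called in these lists, Pkhd1 and Rpgr among them. Pkhd1, which encodes fibrocystin, had 21200.2, 18408 and 25204 normalized reads in Control and 10183, 13047 and 17816 in Sox9cKO (log2 fold change -0.68; limma adjusted p = 0.168 without and 0.0351 with the block). Rpgr, a transition zone guanine nucleotide exchange factor, had 84.1, 124 and 109 against 152, 181 and 189 (log2 fold change 0.72; limma adjusted p = 0.125 without and 0.0469 with the block). In neither gene did the groups overlap, with Pkhd1 below Control and Rpgr above. Of the RFX factors, Rfx3, which drives cilium genes in many epithelia, had 419, 378 and 483 against 298, 355 and 504, and Rfx2 410.2, 329 and 448 against 443, 423 and 762, with overlapping groups in both.

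**Figure D5:**
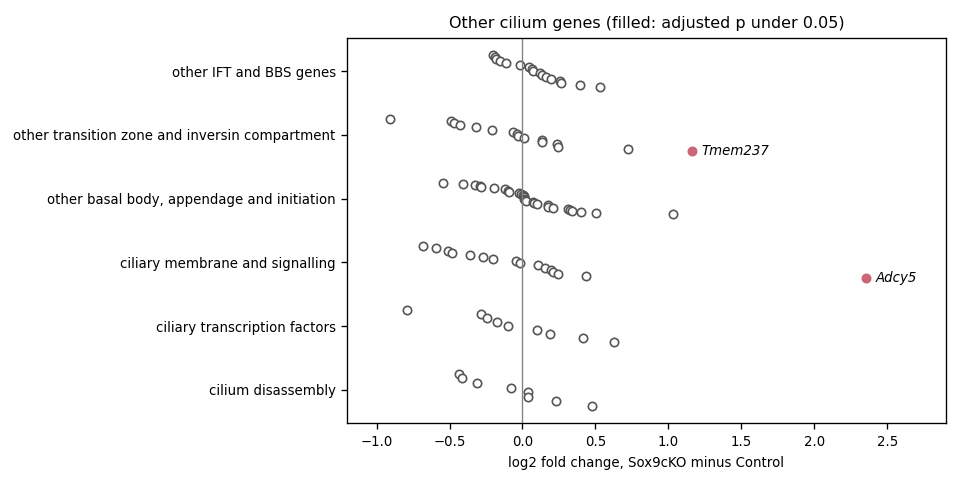
Log2 fold change (horizontal axis, Sox9cKO minus Control) of the 95 tested cilium genes outside the symbol pattern, by list; each point is a gene and filled points have a limma adjusted p under 0.05. Tmem237 at 1.16 and Adcy5 at 2.35 are the filled points.

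Promoter sequence was available from RefSeq (GRCm38.p6) for 79 of the 94 members, as the window from 250 bases before to 50 after the start. The median GC content was 60.7% for these members, against 52.8% over the 27025 genes with a window. Each gene entered as the mean of its windows. A gene was counted where any of its windows held the match. On both strands, GTTGCC was found in 31 of the 79 (39.2%) and in 14.1% of all genes with a window. The spaced X-box form (GTNNCC, then NNN, then GNNAC, which can hold the former) was found in 19 (24.1%) and 5.26%. The full X-box consensus, searched by name, was found in 2 (2.53% and 1.10% of all). The Sox-type cores were no more frequent than elsewhere: ACAAAG was in 16 (20.3%, all genes 21.0%) and ACAATG in 3 (3.80%, all genes 14.3%). Matches are letters in a window, not sites shown to be bound, and windows that differ in GC content differ in how often such letters occur.

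The spaced form is shown in 4 genes of different roles, with the match in capitals within 30 bases of GRCm38.p6. Each is written along the strand on which the match begins with GTTGCC: Bbs7 (chr3:36613489-36613518, minus strand), Mks1 (chr11:87853183-87853212, plus strand), Cep112 (chr11:108425174-108425203, minus strand) and Ift57 (chr16:49699199-49699228, plus strand). Read on the opposite strand, all 4 also fit the spaced form, and Cep112 there fits the full X-box consensus. The 4 were taken from matches that begin with GTTGCC and lie wholly before the start. That they share GTTGCC with the Arl13b window therefore follows from the choice. Other members with the spaced form, Bbs4 and Ift22 among them, had no GTTGCC.
Bbs7: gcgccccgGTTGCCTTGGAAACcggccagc
Mks1: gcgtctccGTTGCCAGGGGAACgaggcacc
Cep112: tcaactctGTTGCCATGGCGACgctccggg
Ift57: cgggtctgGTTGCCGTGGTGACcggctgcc

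Of these 4 genes none was called, and their log2 fold changes were -0.36 (Bbs7), 0.24 (Mks1), -0.43 (Cep112) and 0.26 (Ift57). Over all tested members with a window, the median log2 fold change was 0.16 for the 31 with GTTGCC and 0.11 for the 48 without. It was 0.13 for the 19 with the spaced form and 0.15 for the 60 without, so members with and without the motif stood at nearly the same place.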

How the data were processed

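Per the labels' protocols, total RNA was extracted with a micro-scale kit, depleted of ribosomal RNA and made into stranded libraries with unique molecular identifiers. The submitters' processing notes name GRCm39 and DESeq2 1.36.0; aligner, counter, annotation, strand setting and use of the identifiers are not given in the sources used here. The values the authors deposited are a signal, 1 per gene in each sample, and prove on inspection to be gene counts divided by 1 factor per sample; dividing by the step gave whole reads for 100% of values (tolerance 0.001 reads). These values are called normalized reads.

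Here, log2(value + 1) was fitted with limma 3.58.1 in R 4.3.3 (intensity trend, two-sided, no block) for genes with a mean of at least 10, with Benjamini-Hochberg adjustment over all genes and a threshold of 0.05. Fold changes on this scale are understated for low genes. Intervals are limma's 95% intervals. Alternatives were TMM factors, quantile normalization, a pseudocount of 0.1 or 5, a minimum mean of 50 or none, no trend, edgeR 4.0.16 (quasi-likelihood) and DESeq2 1.42.0 on the recovered reads, the replicate number as a block, and leaving out each sample. The sample titles give both groups the replicate numbers 1 to 3. Deviations of same-numbered samples from their group means correlated at 0.21, 0.47 and 0.54 across genes. Differently numbered samples were not compared in this way. The numbers were taken to pair the samples in the blocked alternatives only, and the main fit used no pairing. The script was tested on simulated data.

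Exon lengths and overlaps came from GENCODE M21 (GRCm38), matched by gene identifier, which differs from the authors' build, so no gene coordinates from it are given. The members, role groups and lists were chosen with earlier results of these data known. By rule the text names Sox9, each called member, the 3 members per role with the lowest p, the 5 highest per exon length and the called genes of the other lists; other genes were named after their values were seen. A few genes that this rule names or the lists hold are not reported here.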

Additional observations from a re-analysis of the deposited data

How the results depend on the processing

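Sox9 stayed lower and called in each of the 17 alternatives. The number of genes called, 510 as reported, was 1214 with DESeq2, 1381 with the replicate block and 1160 in edgeR with the replicate block; leaving out 1 sample gave 199 to 387, the lowest being 199 without Control replicate 1, 212 without Control replicate 3, 280 without Sox9cKO replicate 3 and 334 without Sox9cKO replicate 2. The number of cilium genes called was 2 with DESeq2, 4 with the replicate block, 0 without the intensity trend (Arl13b adjusted p = 0.0702; 13 cilium genes at an unadjusted p under 0.05) and 0 to 1 without single samples; the block changed no other call among the members. The median of the cilium genes was 0.021 after quantile normalization, and 0.069 to 0.16 without single samples. Of 609 values of the 36 named genes other than Sox9 under alternatives, 581 kept direction and side of the threshold, 15 kept direction and lost the call, 4 gained it and 9 changed sign, in Wdr19 (-0.012) and Ttc21b (-0.021) after quantile normalization, Cep83os after quantile normalization (0.0020) and without single samples (-0.71 to 0.43, above 0 at 0.43, 0.046 and 0.14), and Cep350 without single samples (-0.0996 to 0.037, above 0 at 0.0016, 0.037 and 0.0086). Beside Arl13b and Tmem237, the markers Krt7 (5 samples) and Csf1r (3 samples) lost their call when single samples were left out. With a minimum mean of 50, 83 of the 93 members had a value. The cause of these differences between fits was not tested.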

Other observations

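Genes of dividing cells gave a further difference between samples that the groups do not follow. The 14 proliferation markers (Mki67, Top2a, Cdk1 and others) summed to 2031, 3622 and 1439 normalized reads in Control (replicates in order) and 2126, 2899 and 1583 in Sox9cKO, highest in both replicates numbered 2 and lowest in both numbered 3, and none was called. Cep55, which acts in the last step of cell division and is the most variable cilium-list gene within groups, had 18.5, 44.5 and 9.22 normalized reads in Control and 26.9, 27.4 and 11.3 in Sox9cKO. Kif7 had its lowest values in the same replicates numbered 3, 24.2 in Control and 65.7 in Sox9cKO.

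Of 15 motile cilium genes, 13 were tested and none was called. Of the 13, 10 had a log2 fold change above 0 (median 0.58, range -1.36 to 1.03). Foxj1, the transcription factor of motile cilia, had 192, 138 and 149 normalized reads in Control and 246, 264 and 226 in Sox9cKO, without overlap (log2 fold change 0.63, limma adjusted p = 0.123). Smaller lists gave values only: 9 mesenchymal markers tested had a median log2 fold change of -0.035 with none called, and the 10 endothelial markers had a median of 1.07 with none called and 1 called with the replicate block.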
